A study of Mus musculus with 4 samples.

Results

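The Rhox genes (reproductive homeobox genes on the X chromosome) were examined in mouse E14 embryonic stem cells depleted of Npac, the older name of the chromatin protein gene Glyr1. Members were all probe sets whose single gene symbol in the array annotation begins with Rhox, and 4 of the 45101 probe sets qualified, 1 each for Rhox5, Rhox6, Rhox9 and Rhox13, which makes 4 of 18193 genes. No probe set listed several Rhox symbols. RefSeq places 42 Rhox genes and pseudogenes on the X chromosome, so 38 of them had no probe set named for them in the annotation and were not analysed here. All 4 arrays carried RNA from E14 cells grown in serum medium with 1000 units per ml of LIF, the cytokine that keeps such cells undifferentiated. Both Npac RNAi arrays came from cells transfected with a short hairpin RNA against Npac, and both control RNAi arrays from cells given a control whose hairpin is not described in the labels. Puromycin was added 24 hours after transfection and RNA was taken after 3 days of selection. The labels do not say whether the 2 arrays of a group came from separate cultures, so the spread between them may be technical.

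Rhox genes form a cluster of homeobox transcription factor genes that arose by repeated duplication and are expressed mainly in testis, ovary, epididymis and placenta. In the mouse, Rhox5, Rhox6 and Rhox9 belong to its middle (beta) subcluster and Rhox13 to its last (gamma) one. Cells of the early embryo that give rise to the fetus silence many members through DNA methylation, while extra-embryonic cells keep some of them active. Rhox6 and Rhox9 were first described as the placental homeobox genes Psx1 and Psx2, Rhox5 as Pem, a gene of placenta, stem cells and Sertoli cells, and Rhox13 is known for its protein in male germ cells.

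The family was selected on the Npac RNAi to control RNAi differences of Rhox6 and Rhox9, already known to be high, so the values of the members are given as a description, without a test. Values are log2 intensities after RMA, which equalises the arrays, and a difference is the Npac RNAi mean minus the control RNAi mean. The standard error (SE) is the moderated one from limma, which draws each probe set's variance toward that of all others, and for these probe sets it was larger than the arrays' own spread would give.

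Rhox6 and Rhox9 were several-fold higher after Npac depletion, while Rhox5 was slightly lower and Rhox13 hardly differed. Rhox6 (probe set 1419018_at) read 11.63 and 11.65 on the Npac RNAi arrays, against 8.71 and 8.70 on the control RNAi arrays. Both Npac RNAi arrays lay far above both control arrays, by 2.92 log2 units between the nearest values, while arrays of a group lay within 0.016 of each other. The mean was 11.64 ± 0.011 in Npac RNAi and 8.70 ± 0.0097 in control RNAi (SD, n = 2 each), a difference of 2.94 (SE 0.0551) or 7.67-fold. Only 3 of the 45037 probe sets other than manufacturer's controls had a larger positive difference.

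Rhox9 (probe set 1449540_at), the other placental member, read 11.08 and 11.10 on the Npac RNAi arrays, against 8.48 and 8.50 on the control RNAi arrays. Here too the groups stood well apart, with 2.58 log2 units between the nearest values and at most 0.0197 between arrays of a group. Its mean was 11.09 ± 0.014 in Npac RNAi and 8.49 ± 0.012 in control RNAi (SD, n = 2 each), a difference of 2.59 (SE 0.0553) or 6.04-fold. It ranked as the 20th highest difference of all probe sets. The difference of Rhox6 exceeded that of Rhox9 by 0.35 log2 units, a 1.27-fold larger change. Both genes code for closely related homeobox proteins, and probe sequences were not used here, so how far each probe set also reads the transcript of its relative was not tested.

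Rhox5 (probe set 1423429_at), a gene known from stem cells, read 12.95 and 12.95 on the Npac RNAi arrays, against 13.17 and 13.17 on the control RNAi arrays. It was the brightest member in control RNAi, where the means of Rhox13 (12.24), Rhox6 (8.70) and Rhox9 (8.49) were also above the array medians of 6.41 to 6.44. The arrays of Rhox5 were the closest of the 4 members, 0.0015 apart in Npac RNAi and 4e-04 apart in control RNAi. Both Npac RNAi values of Rhox5 lay below both control values. The difference was -0.22 (SE 0.0547), which left 85.8% of the control level. A difference of this size was common on these arrays, since 24.9% of all probe sets had a lower one.

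Rhox13 (probe set 1443844_at), a male germ cell gene at the far end of the cluster, read 12.25 and 12.32 on the Npac RNAi arrays, against 12.24 and 12.24 on the control RNAi arrays. The groups did not overlap, but the gap between them was 0.013, smaller than the 0.0706 between the Npac RNAi arrays. The difference was 0.05 (SE 0.0595), 3.45% above the control level and within 1 SE of no difference.

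**Figure D1:**
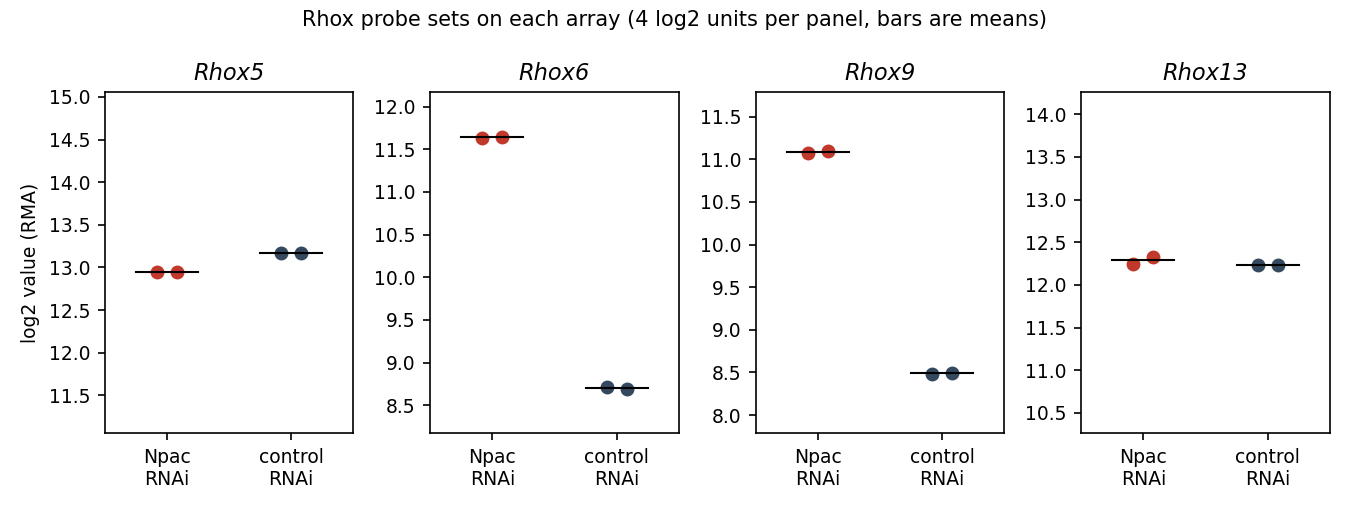
Log2 value (RMA) of each Rhox probe set on each array, with Npac RNAi in red at left and control RNAi in grey at right of each panel, and black bars for the means. Every panel spans 4 log2 units. Rhox6 and Rhox9 show differences of 2.94 and 2.59, while Rhox5 (-0.22) and Rhox13 (0.05) differ little.

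Counted together, 2 of the 4 Rhox probe sets were at least 2-fold higher in Npac RNAi, where 2% of all probe sets were, and both also passed 4-fold, where 0.195% did. None was at least 2-fold lower, where 0.253% of all probe sets were. The groups did not overlap for any of the 4 members, with 3 higher and 1 lower in Npac RNAi. Of all probe sets 69% were separated in this way, 28% higher and 41.1% lower, so separation alone says little about a member. The median difference over all probe sets was -0.06.

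**Figure D2:**
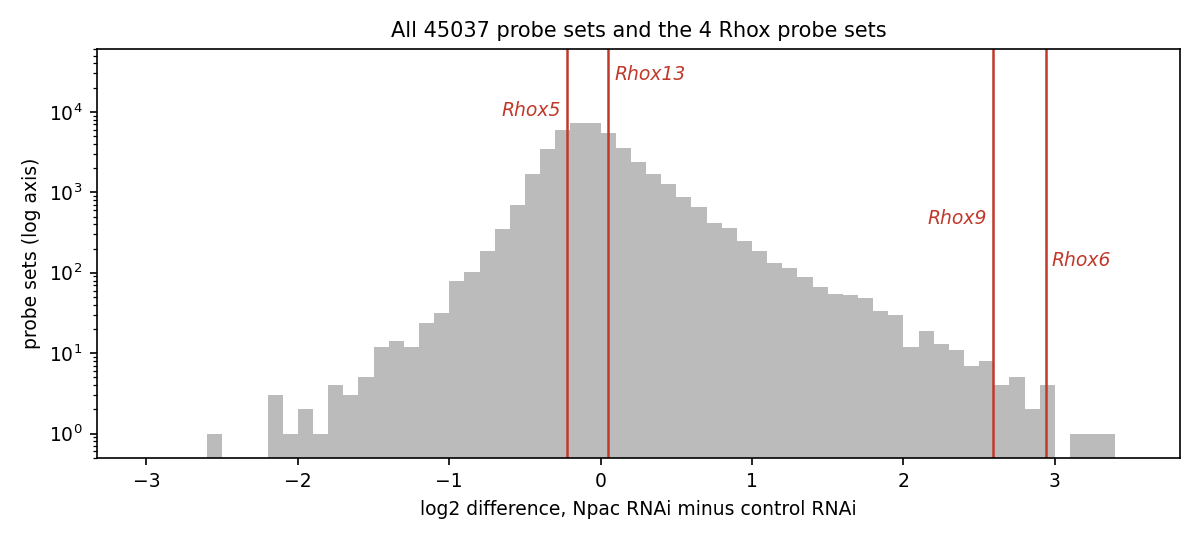
Distribution of the log2 difference, Npac RNAi minus control RNAi, over 45037 probe sets (grey bars, log axis of probe set number), with red lines at the 4 Rhox probe sets. Rhox5 and Rhox13 lie in the bulk, and Rhox6 and Rhox9 lie in the far right tail at rank 4 and rank 20.

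The order of the members along the X chromosome is Rhox5, Rhox6, Rhox9 and Rhox13, at places 29, 30, 34 and 41 of the 42 Rhox entries in RefSeq GRCm38.p6. Only 1 annotated gene lies between Rhox5 and Rhox6, whose differences of -0.22 and 2.94 had opposite signs, and 3 lie between Rhox6 and Rhox9, which were both higher. The promoters of Rhox5 and Rhox13, the members whose promoters were in the table used, are shown because Rhox promoters are known targets of DNA methylation, which acts at CG dinucleotides. They come from the RefSeq table of GRCm38.p6, from 250 bases before to 50 after the annotated start, at chrX:37754358-37754657 and chrX:38120590-38120889, both on the plus strand. The table held promoters of 2 of the 4 members. Capitals mark each CG.
Rhox5: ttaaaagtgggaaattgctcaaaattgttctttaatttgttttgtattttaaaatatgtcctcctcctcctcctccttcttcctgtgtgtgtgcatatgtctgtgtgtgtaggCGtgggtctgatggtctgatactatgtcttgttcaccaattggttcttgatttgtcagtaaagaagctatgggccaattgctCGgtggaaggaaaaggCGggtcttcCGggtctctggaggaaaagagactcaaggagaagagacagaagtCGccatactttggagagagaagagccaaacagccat
Rhox13: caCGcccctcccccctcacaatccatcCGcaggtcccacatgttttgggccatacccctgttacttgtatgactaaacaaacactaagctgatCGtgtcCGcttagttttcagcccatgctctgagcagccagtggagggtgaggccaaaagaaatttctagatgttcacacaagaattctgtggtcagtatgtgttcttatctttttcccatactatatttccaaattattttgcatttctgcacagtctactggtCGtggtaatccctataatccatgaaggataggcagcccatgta
Each of these windows holds 5 CG dinucleotides, and 38.0% of the 32851 promoters in the table hold fewer. Among the 28 Rhox promoters in the table the count ran from 0 to 12 with a median of 7, which is also the median over all promoters. Many Rhox promoters are tandem copies of one another, so they do not count as independent sequences.

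Short motifs were counted in the same windows on both strands. CGGAAG, the core of sites for ETS factors, which contains 1 CG and so overlaps those counts, occurred once in the Rhox5 window, in 9 of the 28 Rhox promoters and in 16.9% of all promoters. GGGCGG, a core of Sp1 sites, which also contains a CG, occurred in neither member's window, in 8 of the 28 and in 35.7% of all promoters. AGATAA, which factors of the GATA family can bind, occurred once in the Rhox13 window, in 1 of the 28 and in 11.2% of all promoters. A second such core, TGATAA, and the AP-2 core GCCNNNGGC were in 0 of the 28, against 9.05% and 16.6% of all promoters.

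The measured neighbours of the cluster were read next, with the limma test over all 45037 probe sets. Of the 5 measured genes on each side, 3 of 10 rose and 0 fell (median difference 0.24), where 19.3% of all 18193 genes rose and 14.6% fell. All 3 lie on the Rhox13 side. The translation factor gene Mcts1 read 11.52 and 11.53 in Npac RNAi against 11.01 and 10.88 in control RNAi (0.58, SE 0.07, limma adjusted p = 0.0088). The ubiquitin ligase scaffold gene Cul4b rose by 0.37 (SE 0.0549, limma adjusted p = 0.0136) and the lysosomal membrane gene Lamp2 by 0.41 (SE 0.0573, limma adjusted p = 0.0125). On the same side Atp1b4 (0.22) and C1galt1c1 (0.13) did not pass the test.

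On the Rhox1 side none of the 5 genes passed. Gm9 (0.28), Rnf113a1 (0.26), the respiratory chain subunit gene Ndufa1 (0.12), Nkap (-0.04) and Akap14 (-0.24) had limma adjusted p between 0.0598 and 0.641. Zbtb33 (0.21), which encodes the methyl-CpG binding protein Kaiso, and Tmem255a (-0.20) lie between Rhox13 and the last Rhox pseudogene and did not pass either (limma adjusted p = 0.0758 and 0.21). On the probe sets used, the neighbours thus ran from -0.24 to 0.58, against 2.59 and 2.94 for Rhox9 and Rhox6. The other Cul4b probe set gave 0.66, and the 4 of Lamp2 ran from 0.10 to 0.45. With any 1 of the 4 arrays left out 0 or 1 neighbour was called, and with scaling on the spike-in controls 0 rose and 6 fell.

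**Figure D3:**
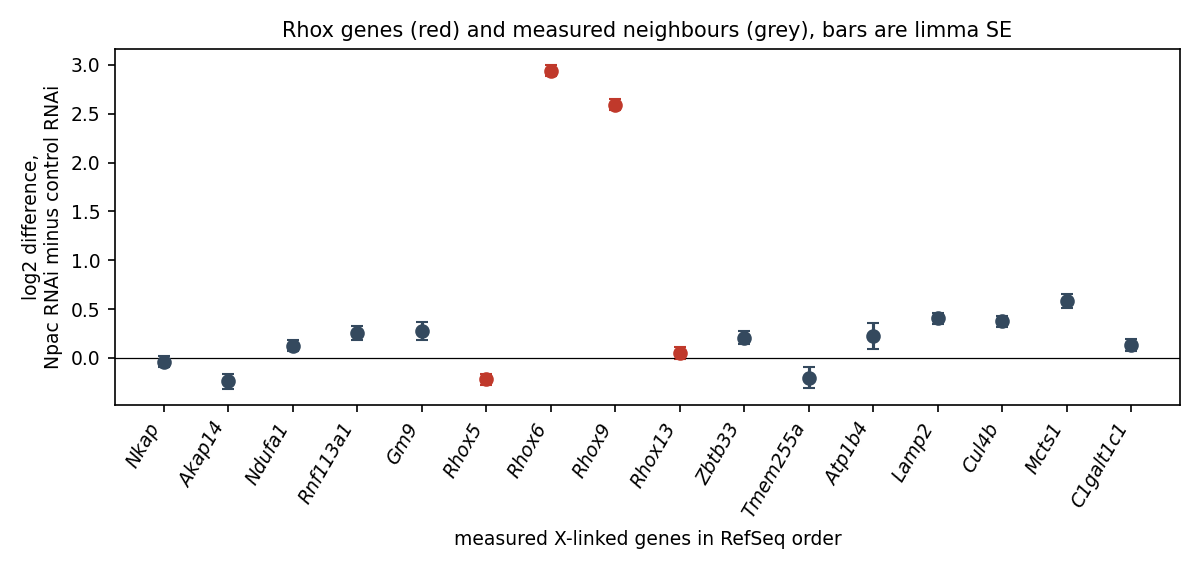
Log2 difference, Npac RNAi minus control RNAi, of the measured X-linked genes in RefSeq order, with limma SE as bars, Rhox genes in red and other genes in grey. The neighbours lie between -0.24 and 0.58, and Rhox6 and Rhox9 stand at 2.94 and 2.59 beside Rhox5 at -0.22.

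Over the X chromosome, 135 of 613 measured genes outside the Rhox family rose and 93 fell (22% and 15.2%), against 3360 and 2551 of 17404 autosomal genes (19.3% and 14.7%). The median difference was 0.01 for X-linked and -0.04 for autosomal genes. Differences of at least 2-fold upward were found for 26 X-linked genes (4.24%) and for 502 autosomal genes (2.88%). Other X-linked genes listed as reproductive or of cancer-testis type were counted separately. Of 21 measured, 5 rose and 7 fell, or 23.8% and 33.3% (median -0.22). Among the 5 was Zfx, with 0.76 on the probe set used, while its 4 probe sets ran from -0.06 to 0.76.

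In that list, 2 genes had differences close to those of Rhox6 and Rhox9. The ferritin-like gene Fthl17a read 9.39 and 9.38 in Npac RNAi against 6.63 and 6.84 in control RNAi (2.64, SE 0.0877, limma adjusted p = 0.0011). The trophoblast gene Plac1 read 9.93 and 9.83 in Npac RNAi against 7.38 and 7.41 in control RNAi (2.49, SE 0.0646, limma adjusted p = 0.0011). Groups stood apart in both. In the other direction the melanoma antigen family gene Magea5 had the largest fall of the list, with 5.15 and 5.64 in Npac RNAi against 7.60 and 7.49 in control RNAi. It fell by 2.15 (SE 0.176, limma adjusted p = 0.00402). Nr0b1, a nuclear receptor gene of the stem cell state, fell by 1.43 (SE 0.0549, limma adjusted p = 0.00115) and Magea4, of the same family as Magea5, fell by 1.23 (SE 0.0772, limma adjusted p = 0.00245). The placental homeobox gene Esx1, an X-linked gene, showed no call (0.04, SE 0.112, limma adjusted p = 0.832) and overlapped between groups. The calls on Fthl17a, Plac1, Magea5, Nr0b1 and Magea4 held without any 1 of the 4 arrays, when the list gave 3 higher and 3 to 5 lower, and with spike-in scaling, when it gave 2 higher and 16 lower.

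Homeobox genes of the paired-like and related classes outside the cluster gave rises and falls of less than 1 log2 unit. Of 30 measured, 4 rose and 7 fell, or 13.3% and 23.3%, where 19.3% and 14.6% of all genes did (median -0.17). The limb and heart gene Shox2 read 6.88 and 7.00 in Npac RNAi against 6.01 and 6.02 in control RNAi (0.92, SE 0.0676, limma adjusted p = 0.00328), but its other probe set gave -0.03. Prrx2 rose by 0.49 (SE 0.068, limma adjusted p = 0.0119). Obox6, an oocyte homeobox gene, fell by 0.89 (SE 0.0599, limma adjusted p = 0.00277) and Lmx1a fell by 0.85 (SE 0.0665, limma adjusted p = 0.00366). The largest rise in the list, that of Shox2, was 0.92, against 2.59 for Rhox9. Without any 1 of the 4 arrays 1 to 3 rose and 2 fell, with Shox2, Obox6 and Lmx1a still called and Prrx2 lost without control array 1, control array 2 or Npac array 2 (limma adjusted p up to 0.0705). With spike-in scaling 1 rose and 26 fell, and Prrx2 was -0.05.

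Regulators of DNA methylation and chromatin were examined because DNA methylation silences Rhox genes. Of 30 measured, 5 rose and 12 fell, or 16.7% and 40%, where 19.3% and 14.6% of all genes did (median -0.20). The list is not one of silencers alone, since 4 of the 12 that fell were Tet1, Tet2 and Tet3, whose enzymes oxidise methylated cytosine, and Wdr5, a subunit gene of complexes that methylate histones at active genes. Tet1 read 11.36 and 11.40 in Npac RNAi against 12.21 and 12.13 in control RNAi (-0.79, SE 0.0635, limma adjusted p = 0.00388). All 4 of its probe sets were lower, from -1.20 to -0.62. Tet3 had a dim probe set, at 4.56 and 4.35 in Npac RNAi against 4.87 and 4.87 in control RNAi. The de novo methyltransferase gene Dnmt3a fell by 0.56 (SE 0.0554, limma adjusted p = 0.00575) on the probe set used, while its 5 probe sets ran from -0.72 to 0.72.

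Dnmt3b, the other de novo enzyme gene, read 12.21 and 12.23 in Npac RNAi against 11.81 and 11.78 in control RNAi (0.43, SE 0.0561, limma adjusted p = 0.0107). Its cofactor gene Dnmt3l rose by 0.41 (SE 0.0584, limma adjusted p = 0.0129), and the repressor gene E2f6 rose by 0.52 (SE 0.0558, limma adjusted p = 0.0068), while its other probe set gave 0.05. The maintenance methyltransferase gene Dnmt1 did not pass (-0.07, SE 0.066, limma adjusted p = 0.439), while Uhrf1, whose protein guides that enzyme to new DNA, fell by 0.57 (SE 0.0655, limma adjusted p = 0.00791). The histone methyltransferase genes Ehmt2 (0.12, limma adjusted p = 0.254) and Setdb1 (-0.17, limma adjusted p = 0.0962) had no call. Calls on this list were sensitive to the arrays used, with 0 or 1 higher and 1 to 6 lower when any 1 of the 4 arrays was left out. The call on Tet1 held in each case, that on Dnmt3a was lost without control array 2 (limma adjusted p = 0.0546), and those on Dnmt3b and Dnmt3l without each array. Uhrf1 was lost without either control array and E2f6 without either control array or Npac array 2 (limma adjusted p up to 0.0649 and 0.0603). With spike-in scaling 0 rose and 26 fell, with Dnmt3b at -0.11, Dnmt3l at -0.13 and E2f6 at -0.02.

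Germline genes known for promoter methylation outside the germline gave 12 higher and 2 lower of 27 measured, or 44.4% and 7.41%, where 19.3% and 14.6% of all genes were (median 0.13, against -0.04 over all genes). Taf7l, an X-linked germ cell transcription factor gene, read 10.42 and 10.51 in Npac RNAi against 9.06 and 9.05 in control RNAi (1.41, SE 0.0622, limma adjusted p = 0.00135). Sycp1, which encodes a protein of the meiotic synaptonemal complex, rose by 0.52 (SE 0.0549, limma adjusted p = 0.00671), and the germ cell helicase gene Ddx4 rose by 0.55 (SE 0.0928, limma adjusted p = 0.0186). The RNA-binding protein gene Dazl had no call (-0.14, SE 0.0604, limma adjusted p = 0.147). Piwil1, of the piRNA pathway, fell by 0.44 (SE 0.0555, limma adjusted p = 0.00992) and Asz1 fell by 0.40 (SE 0.0621, limma adjusted p = 0.0155). Without any 1 of the 4 arrays 1 to 4 rose and 0 fell, and Taf7l kept its call, while that on Ddx4 was lost without each array and that on Sycp1 without either control array or Npac array 2 (limma adjusted p up to 0.0952 and 0.0601). With spike-in scaling 1 rose and 16 fell, with Taf7l at 0.87, Sycp1 at -0.02 and Ddx4 at 0.01.

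**Figure D4:**
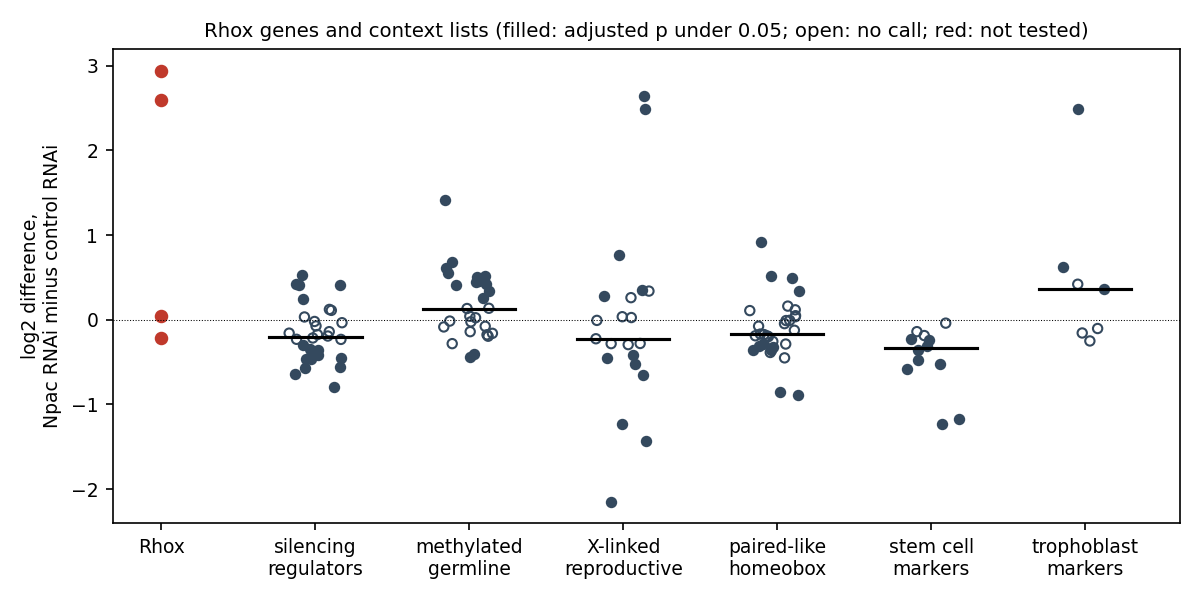
Log2 difference, Npac RNAi minus control RNAi, of the 4 Rhox genes (red, not tested) and of the measured genes of 6 lists (filled at a limma adjusted p under 0.05, open otherwise), with black bars for list medians. Rhox6 and Rhox9 lie above all genes of these lists except Fthl17a, which stands at 2.64, above Rhox9.

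Genes known to depend on Rhox5 in mouse Sertoli cells were also read. Of 5 measured, 0 rose and 1 fell, or 0% and 20%, where 19.3% and 14.6% of all genes did (median -0.22). The list was not split by the direction of that dependence, and the gene that fell had a probe set below the median level. The adipokine gene Adipoq fell by 0.56 (SE 0.0632, limma adjusted p = 0.00776), a call lost without control array 2 and without Npac array 2 (limma adjusted p up to 0.0603). Unc5c (-0.22), Ins2 (-0.29), Adipor2 (-0.21) and Retn (-0.15) had no call.

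The genes whose profile over the 4 arrays was nearest to that of Rhox6 were found by Euclidean distance after removing each gene's own mean. They were the chemokine gene Cxcl10 (distance 0.056), the peripheral myelin gene Pmp22 (0.105), the macrophage growth factor gene Csf1 (0.181), the growth factor gene Igf2 (0.228) and the transcriptional cofactor gene Vgll3 (0.255). For Rhox9 they were the guanylate-binding protein gene Gbp2 (0.0666), the placental transcription factor gene Ascl2 (0.106), the small heat shock gene Cryab (0.109), the Wnt antagonist gene Dkk1 (0.123) and Igf2 (0.127). Rhox6 and Rhox9 lay 0.346 apart, with 8 genes nearer to Rhox6 and 24 nearer to Rhox9. With 2 groups of 2 arrays, this likeness is little more than a similar size of difference, which ran from 2.51 for Cryab to 2.94 for Pmp22 among these genes. Their probe sets disagreed most for Csf1 (-0.25 to 2.91 over 4) and Cryab (0.08 to 2.62 over 3). Those of Igf2, which is listed for both members, ran from 1.499 to 2.716 over 2, and the higher one was used.

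Markers were used to check the labels. Glyr1, the targeted gene, read 10.23 and 10.20 on the Npac RNAi arrays against 11.30 and 11.32 on the control arrays (-1.09, SE 0.0554, limma adjusted p = 0.00171), a call that held without any 1 array. Stem cell markers had mean log2 values over the list of 11.83 and 11.85 in Npac RNAi against 12.30 and 12.29 in control RNAi. Of 12 such markers 9 fell and 0 rose, or 75% and 0%, where 14.6% and 19.3% of all genes did (median -0.34). Among them the Oct4 gene Pou5f1 fell by 1.17 (limma adjusted p = 0.00162) and the Nodal co-receptor gene Tdgf1 fell by 1.23 (limma adjusted p = 0.00138). With any 1 of the 4 arrays left out 2 to 4 fell, Pou5f1 and Tdgf1 among them. In bulk RNA, a change in the share of cells that express a gene and a change in the RNA per cell cannot be told apart, for the Rhox genes as for these.

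Trophoblast markers gave 3 higher and 0 lower of 7 measured out of 13 listed (median 0.37). These were 42.9% and 0%, where 19.3% and 14.6% of all genes were. Mean log2 values over the list were 6.24 and 6.25 in Npac RNAi against 5.74 and 5.78 in control RNAi. Plac1 rose by 2.49 and the giant cell factor gene Hand1 by 0.37 (limma adjusted p = 0.0011 and 0.0173), with 0.10 on the other Hand1 probe set. The trophoblast lineage factor gene Cdx2 rose by 0.63 (limma adjusted p = 0.0188, other probe set 0.18). Tpbpa (-0.25), Psg17 (-0.16), Ctsq (-0.10) and Elf5 (0.42) had no call. The 2 probe sets of Elf5 ran from -0.41 to 0.42. Without Plac1 the list means were 5.63 and 5.65 in Npac RNAi against 5.47 and 5.51 in control RNAi. The call on Hand1 was lost without each array and with spike-in scaling (-0.17), and that on Cdx2 without either control array or Npac array 2 and with spike-in scaling (0.09). Germ cell markers gave 2 higher and 1 lower of 8, or 25% and 12.5%, near the 19.3% and 14.6% of all genes. Their mean log2 values were 8.29 and 8.32 in Npac RNAi against 8.31 and 8.29 in control RNAi. Among them Zp3 rose by 0.43, Ddx4 rose by 0.55 and Stra8 fell by 0.34 (limma adjusted p = 0.0119, 0.0186 and 0.0217). Both Zp3 and Ddx4 were already counted among the higher germline genes above, and the probe set of Zp3 was below the median level.

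Sertoli and granulosa cell markers gave 1 higher and 1 lower of 9, or 11.1% each, where 19.3% and 14.6% of all genes were. Their mean log2 values were 6.08 and 6.03 in Npac RNAi against 5.97 and 6.00 in control RNAi. Wt1 rose by 1.15 and Fshr fell by 0.40 (limma adjusted p = 0.0137 and 0.0423), each on a probe set below the median level. Fibroblast markers gave 2 higher and 1 lower of 10, or 20% and 10%, near the shares over all genes. Their mean log2 values were 5.98 and 5.94 in Npac RNAi against 5.97 and 5.90 in control RNAi. Pdgfrb rose by 0.79, S100a4 rose by 0.36 and Pdgfra fell by 0.49 (limma adjusted p = 0.00587, 0.0293 and 0.0226). The other Pdgfrb probe set gave 0.25, and the 3 of Pdgfra ran from -0.57 to 0.005. The probe set of S100a4 was below the median level. Of these calls Zp3, Stra8, Fshr, S100a4 and Pdgfra were lost without each array, Wt1 without control array 2 or Npac array 2, and Pdgfrb without either control array (limma adjusted p up to 0.0727 and 0.0591). The part of other cell types in the differences of Rhox6 and Rhox9 was not tested.

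The limma test called 12705 of 45037 probe sets, of which 6378 were higher (14.2%) and 6327 lower (14%) after Npac depletion. Poly-A spike-ins, which are bacterial RNAs mixed into the sample ahead of labelling, read 0.54 higher on the Npac RNAi arrays, and scaling on them lowered every difference by that amount and gave 1506 higher and 38240 lower. Under that scaling the differences were 2.40 for Rhox6, 2.05 for Rhox9, -0.76 for Rhox5 and -0.49 for Rhox13, so Rhox13 had the opposite sign. Over the other 10 settings Rhox6 stayed between 2.87 and 2.96, Rhox9 between 2.51 and 2.61, Rhox5 between -0.22 and -0.20 and Rhox13 between 0.01 and 0.08.

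**Figure D5:**
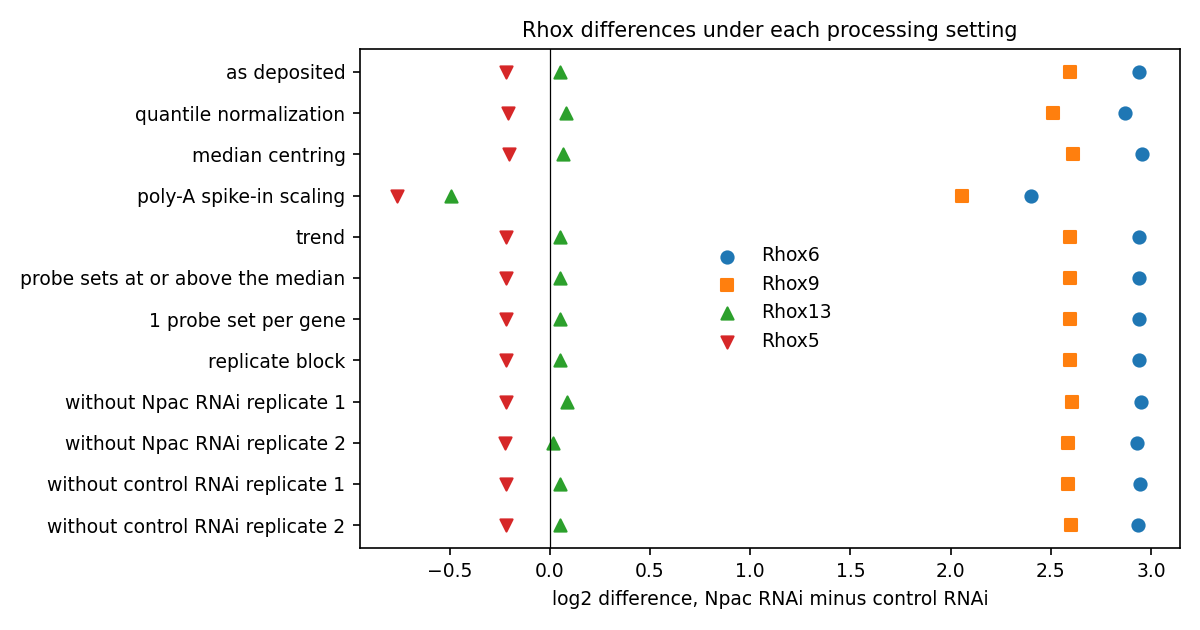
Log2 difference, Npac RNAi minus control RNAi, of each Rhox gene (symbols) for the deposited values and 11 other settings (rows). Rhox6 and Rhox9 stay at or above 2.05 in every row, and scaling on the poly-A spike-ins shifts all 4 genes by -0.54.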

How the data were processed

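The deposited table holds 1 value per probe set and array for 4 single-channel arrays, 2 per group. The authors' values come from RMA, per the submitters' processing notes, with version, software and probe set definitions not given in the sources used here. Their log2 scale was inferred from the deposited values, which ran from 2.78 to 15.05 without control probe sets, with array medians of 6.41 to 6.44. Only 4 arrays limit the precision. Symbols came from GEO's platform annotation: of 45037 probe sets other than 64 manufacturer's controls, 34945 had 1 symbol, 932 several and 9160 none. They were updated by Entrez identifier against RefSeq GRCm38.p6, which matched 34741.

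The test was limma 3.58.1 under R 4.3.3 (lmFit and eBayes, Npac RNAi against control RNAi with no other term), with Benjamini-Hochberg adjustment over 45037 probe sets and a threshold of 0.05. The fit had 2 residual and 2.56 prior degrees of freedom. A gene was read from its probe set with the highest mean. No filter was applied. On simulated data, 50 probe sets per size among 45037, 2% of those changed by 0.5, 68% by 1, 90% by 2 and 96% by 3 log2 units were called. With so few changed probe sets the adjustment is stricter than in the real table, where smaller differences passed, so these shares do not give its power.

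The members and lists were chosen with earlier results of these data known. The text names every Rhox probe set, Glyr1, up to 2 higher and 2 lower called genes per list with the smallest adjusted p, 12 genes fixed by name, all neighbours of the cluster and the 5 genes nearest in profile to Rhox6 and Rhox9. Magea5, Cdx2, Tet2, Tet3, Wdr5, Tpbpa, Psg17, Ctsq, Elf5, Unc5c, Ins2, Adipor2, Retn, Zfx, Zbtb33 and Tmem255a were named after their values were seen. Alternatives were quantile normalization, median centring, spike-in scaling, a variance trend, a filter on dim probe sets, 1 probe set per gene, each array left out, and a block for the replicate number.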

Additional observations from a re-analysis of the deposited data

Results flagged for a closer look

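The 24 poly-A spike-in probe sets, which lie outside the gene comparison, read 0.54 log2 units higher on the Npac RNAi arrays than on the control RNAi arrays, with 24 of 24 higher. They are repeated readings of a few added transcripts. Scaling the arrays on them subtracts this amount from every difference, so that any smaller rise, such as those of Dnmt3b and Sycp1, changes sign by construction. Rhox6 was then at 2.40 and Rhox9 at 2.05.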

How the results depend on the processing

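Of the 11 alternatives, only the 3 other scalings and the 4 with 1 array left out can move a difference, and only the scalings can make groups overlap. Under these the counts of 2 Rhox probe sets at least 2-fold higher and 4 without overlap did not change, for members chosen by their differences. Rhox13 turned to -0.49 with spike-in scaling, as that scaling subtracts 0.54 from every difference. The count of called probe sets was 12705 as deposited (6378 higher, 6327 lower). It was 39746 with spike-in scaling (1506 and 38240), 7425 with 1 probe set per gene, where fewer features are tested (4020 and 3405), and 2060 to 4237 with 1 array left out (1592 to 2890 higher, 468 to 1347 lower), when a lone array is assumed to vary like the other group. The fewest calls came without control array 2. Called genes over the context lists, 29 higher and 29 lower as deposited, were 4 and 94 with spike-in scaling and 5 to 11 and 6 to 14 with 1 array left out. The context lists counted here are the silencing regulators, the methylated germline, X-linked reproductive and paired-like homeobox genes, the Rhox5-dependent genes and the neighbours. Stem cell, trophoblast and other cell type markers are left out of that count. Median centring moved the median difference over probe sets by 0.02. With the replicate number as a block 4887 probe sets were called (3219 higher, 1668 lower), and 13 higher and 16 lower context genes. The labels do not say that equal numbers share a culture, and deviations of same-numbered arrays correlated at -0.14. A crossed block, chosen after seeing the data, gave 9500. Depth does not apply to arrays, and dim probe sets were not filtered in the main setting.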
